A study of Mus musculus with 78 samples.

Results

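B1 elements are the short interspersed repeats of the mouse genome that arose from 7SL RNA, the RNA of the signal recognition particle, and they are the mouse counterpart of the primate Alu. Every B1 copy measured in single blastomeres of 4-cell and 8-cell mouse embryos is described here. Members were the rows of the 2 repeat tables whose family name starts with B1 or PB1. The 4-cell table listed 69476 B1 copies among 278683 repeat copies and the 8-cell table listed 77375 among 327627. Both tables held 36626 of these B1 copies, and either table held 110225.

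The embryos came from a cross of mice that carry the CAG-driven Brainbow2.1 cassette at the Rosa26 locus with the strain Tg(CAG-cre/Esr1*)5Amc/J, whose Cre is inducible by tamoxifen, so every embryo of both stages carried 1 Brainbow cassette and 1 Cre gene, each driven by a ubiquitous promoter. All embryos were collected at the 2-cell stage 46 hours after the second hormone injection, exposed to 4-hydroxytamoxifen for 2 hours, and cultured to the 4-cell or the 8-cell stage. The labels describe 36 blastomeres of 9 embryos at the 4-cell stage and 31 of 4 embryos at the 8-cell stage, and the tables hold 24 and 26 of them. Embryos were chosen for sequencing by showing at least 2 fluorescent cells. The column names give no embryo or lineage, so each stage was treated as 1 sample, its blastomeres were not taken as replicates, and no difference between the stages was tested. Values are given as lowest, median and highest over the blastomeres of a stage. FPKM is the number of fragments on a copy or gene, scaled to its length and to the fragment number of the blastomere.

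B1 copies hold an internal promoter for RNA polymerase III, so a copy can in principle be transcribed on its own. Many copies lie in or near genes, and they are then also carried along in messenger RNA precursors and in untranslated parts of mature messenger RNA. The subfamilies differ in age. B1_Mm, B1_Mus1 and B1_Mus2 are the youngest and are called the young subfamilies here, B1_Mur copies are older, and B1F and the proto-B1 families (PB1 and PB1D) are the oldest and most diverged. Young copies resemble each other closely, so fewer reads can be placed on 1 copy alone, and the tables rest on uniquely aligned reads.

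The positions of the copies themselves are not given in the tables, so copies inside and outside genes could not be counted directly. A row names its subfamily, its chromosome and a running number within both.

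The blastomeres differed widely in depth. The number of fragments by which the values were scaled, recovered from the values themselves, in units of 1 M fragments, was 6.88 to 16.9 at the 4-cell stage (median 13.4) and 2.34 to 21.8 at the 8-cell stage (median 17.3). The lowest belonged to the 8-cell blastomere in column S57, which also had the fewest B1 copies. The 4-cell blastomere in column S18 had the fewest genes above 1 FPKM, 3009 against a median of 7155. Of 9 markers of oocytes and early embryos, 7 had a median above 1 FPKM at the 4-cell stage and 5 at the 8-cell stage, where all genes had 49.7% and 45.8%. Dppa3, a maternal factor of the early embryo, was at a median of 3658 FPKM at the 4-cell stage and 3260 at the 8-cell stage, whereas Oosp1, a protein of the oocyte, was at a median of 0 at both and the oocyte growth factors Gdf9 and Bmp15 were at a median of 0 at the 8-cell stage. Of 7 cumulus and granulosa cell markers, 3 were listed at the 4-cell stage and 2 at the 8-cell stage, all with a median of 0, and none of 3 blood markers was listed.

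B1 made up a large part of all repeat copies listed, and a smaller part of those seen in any 1 blastomere. The share of rows was 24.9% at the 4-cell stage (95% exact binomial interval 24.8 to 25.1%) and 23.6% at the 8-cell stage (23.5 to 23.8%). Such intervals cover counting error only, since reads amplified by PCR are not independent molecules. A 4-cell blastomere had 2388 to 11929 B1 copies above 0, with a median of 6592. An 8-cell blastomere had 1830 to 13498, with a median of 7122. The ranges overlapped nearly throughout, and 1 of 26 8-cell blastomeres lay below the lowest and 1 above the highest 4-cell blastomere. As a share of all repeat copies above 0 in the same blastomere, B1 ranged from 10.02% to 22.3% (median 18.9%) at the 4-cell stage and from 15.8% to 21.8% (median 19.5%) at the 8-cell stage.

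Fragments on B1 copies were set against the number of fragments by which the values were scaled, which need not be all fragments of the library. They made up 1.29% to 1.94% of that number at the 4-cell stage (median 1.48%). In 8-cell blastomeres the shares were 1.17% to 2.14% (median 1.64%). These are lower bounds, because the length of a copy seen in few blastomeres is known only as a divisor. With lengths set near the upper end for each subfamily, the medians were 1.60% and 1.79%. The number of B1 copies went along with the number of all repeat copies in the same blastomeres (Pearson r = 0.96 over 24 4-cell and 0.98 over 26 8-cell blastomeres). Both counts come from the same libraries, and the count of all repeat copies includes the B1 copies. With the number of genes above 1 FPKM, r was 0.75 and 0.70.

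**Figure D1:**
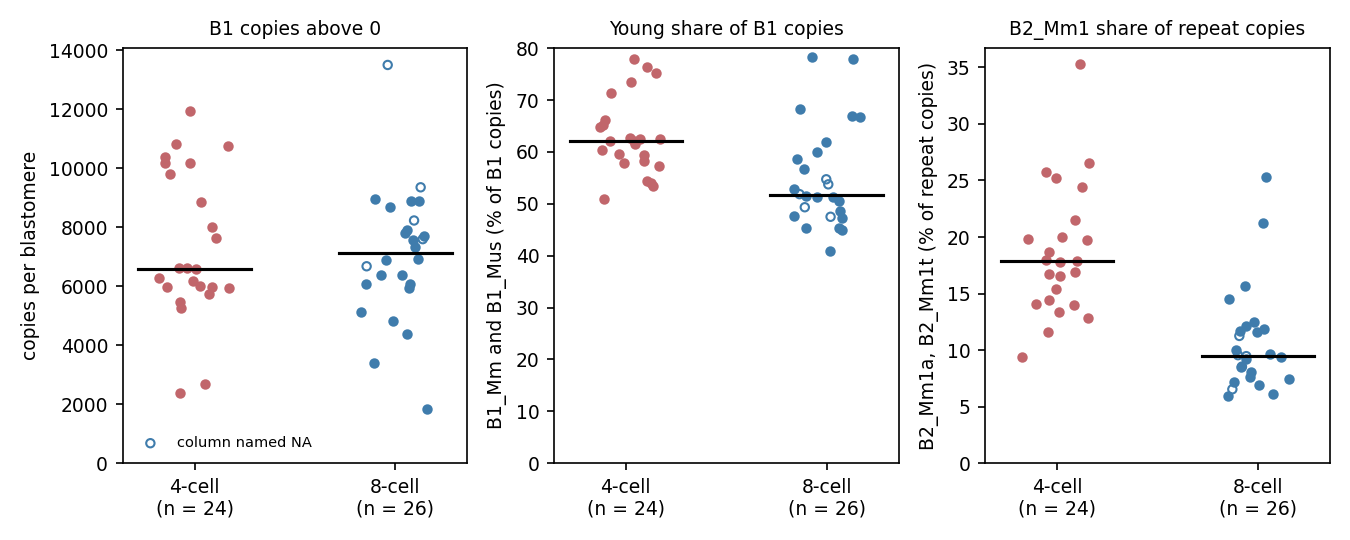
Each point is 1 blastomere, with the stage on the x axis, a black line at the median and open circles for the 5 8-cell columns named NA. The panels show the number of B1 copies above 0 (median 6592 and 7122), the young subfamilies as a percentage of these (62.2% and 51.7%), and B2_Mm1 copies as a percentage of all repeat copies above 0 (17.8% and 9.51%).

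The make-up of the B1 copies differed more between the stages than their number did. In 4-cell blastomeres the young subfamilies formed 51.02% to 77.9% of the B1 copies above 0 (median 62.2%), and in 8-cell blastomeres 40.97% to 78.2% (median 51.7%). Of the 26 8-cell blastomeres, 10 lay below the lowest 4-cell blastomere, and of the 24 4-cell blastomeres 23 lay above the 8-cell median. The proto-B1 families went the other way, with 9.56% to 21.2% (median 16.2%) at the 4-cell stage and 8.99% to 24.7% (median 20.3%) at the 8-cell stage, and 11 8-cell blastomeres lay above the highest 4-cell blastomere. In numbers of copies, the medians were 4299 (4-cell) and 3878 (8-cell) for young ones and 1041.5 and 1481 for proto-B1 ones, each within overlapping ranges. These differences were not tested, and the spread between embryos is not known here. The 8-cell blastomeres did not form an even group. Those in columns S53 to S58 had young shares of 61.9% to 78.2%, of which 1 lay above the highest 4-cell blastomere, and the other 20 had 40.97% to 59.9%. The same 6 had the fewest genes above 1 FPKM of the stage, 3548 to 5391 against 5884 or more. At the 4-cell stage 4 blastomeres had fewer than 5500 such genes, with young shares of 60.3% to 77.9%. Without the blastomeres below 5500 genes the median young share was 62.2% over 20 4-cell and 50.9% over 20 8-cell blastomeres. The part of these libraries in the difference was otherwise not tested.

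The young share of B1 was set beside that of young copies of B2, the other abundant SINE of the mouse, which arose from a transfer RNA. B2_Mm1a and B2_Mm1t together formed 9.36% to 35.3% of the repeat copies above 0 in 4-cell blastomeres (median 17.8%), against 5.96% to 25.3% at the 8-cell stage (median 9.51%). Across blastomeres the young share of B1 and the B2_Mm1 share went together with r = 0.72 at the 4-cell (n = 24) and 0.95 at the 8-cell stage (n = 26), as shares of the same libraries. Single 4-cell blastomeres departed from this, such as the one in column S4 with 71.4% young copies and a B2_Mm1 share of 16.7%, below the median. With the number of fragments of the blastomere the young share had r = 0.29 and -0.28.

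At an equal number of fragments the order of the stages was the same for young and for proto-B1 copies. Each blastomere was thinned, by expectation, to 6.88 M fragments, which leaves out the blastomere in column S57. Young copies then had a median of 3442 at the 4-cell stage and 2764 at the 8-cell stage, and proto-B1 copies 997 and 1309. With the upper bounds of the fragment numbers the medians were 3492 and 2850.03 for young and 1007 and 1343 for proto-B1 copies. All B1 together stood at 5487 and 5423 with the lower and 5561 and 5626 with the upper bounds, so no order of the stages can be read for the total.

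Signal per copy separated the subfamilies as well. Scaled to 146 bases, the commonest length of B1_Mm, a young copy above 0 had a median of 2 to 4 fragments within a 4-cell and 2 to 6.26 within an 8-cell blastomere. An older copy had 11.97 to 88.2 and 18.4 to 42.5. Over all values above 0, the median was 1.10 FPKM for B1_Mm and 12.3 FPKM for PB1D10 at the 4-cell stage, and 1.12 and 13.3 FPKM at the 8-cell stage. Many young copies were counted from a handful of fragments. With only values above 1 FPKM counted, the young share had medians of 52.3% at the 4-cell stage and 42.2% at the 8-cell stage, in the same order as with all values.

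Lengths used in the FPKM were recovered for copies with 5 or more values. They may be 1 base short of the annotated length, since whether the first base was counted is not known, and this holds for each length given here. The median was 145 bases for B1_Mm, B1_Mus1 and B1_Mus2, 131 to 135 bases for the B1_Mur subfamilies, 116 to 121 bases for the B1F subfamilies and 87 to 106 bases for the proto-B1 families other than PB1 itself. At the commonest length of 146 bases were 866 of 3088 B1_Mm copies and 2780 of the 11385 young copies with a recovered length. Proto-B1 elements lack the internal duplication of B1, and their lengths stayed lower, with a 95th percentile of 119 bases for PB1D10.

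Every older subfamily had more listed copies at the 8-cell stage, and every young one had fewer. The highest running number on each chromosome, summed, gives 569086 numbered B1 copies, a lower bound of the copies annotated. Of the 42763 numbered B1_Mm copies, 10549 were listed at the 4-cell stage and 9719 at the 8-cell stage, 24.7% and 22.7%. B1_Mus1 stood at 17.04% and 16.5% of 94779, and B1_Mus2 at 22.3% and 21.5% of 70611. The B1_Mur subfamilies were listed at 7.61% to 8.81% of their copies at the 4-cell stage and at 10.6% to 11.3% at the 8-cell stage. B1F stood at 6.00% and 8.40% of 44334, B1F1 at 6.96% and 9.74%, and B1F2 at 7.08% and 10.04%. Among proto-B1 families PB1D9 was listed most, at 9.98% and 13.6% of 28617, and PB1D10 had 4090 and 5726 listed copies, 6.37% and 8.92% of 64171.

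The 8-cell table has 2 more columns, and a list grows with each column. For 24 of its 26 blastomeres the expected list held 38739.8 young copies against 42422 at the 4-cell stage. It held 13972 B1_Mur copies against 11090, 6881 B1F copies against 5158 and 14189 proto-B1 copies against 10806. With equal numbers of blastomeres, young copies were fewer and older copies more at the 8-cell stage. Depth was left unequal in these lists, at a median of 13.4 M fragments at the 4-cell and 17.3 M at the 8-cell stage. Repeat copies other than B1 were also more, at 238619 expected against 209207 at the 4-cell stage.

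**Figure D2:**
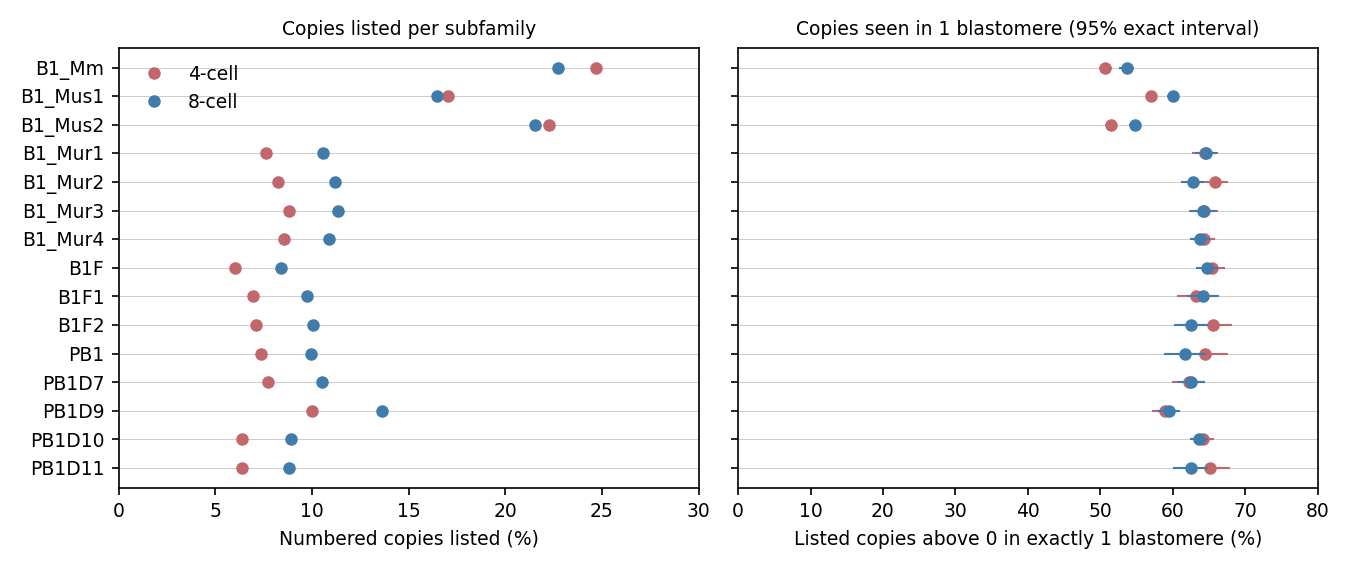
Subfamilies are on the y axis, young ones at the top, with red for the 4-cell and blue for the 8-cell stage. The left panel shows listed copies as a percentage of numbered copies, where B1_Mm stands at 24.7% and 22.7% and PB1D10 at 6.37% and 8.92%. The right panel shows the percentage of listed copies above 0 in exactly 1 blastomere with its 95% exact interval, lowest for B1_Mm at 50.7% and 53.6%.

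Most B1 copies were seen once. At the 4-cell stage 39921 of 69476 copies, 57.5% (57.1 to 57.8%), were above 0 in exactly 1 blastomere, against 54.8% of all repeat copies. At the 8-cell stage it was 46170 of 77375, 59.7% (59.3 to 60.02%), against 59.8%. B2 and B3 copies were seen once less often, at 41.4% and 51.3%, and B4, RSINE and ID copies more often, at 67.8% and 67.2%. Within B1 the lowest shares were 50.7% and 53.6% for B1_Mm and 51.4% and 54.7% for B1_Mus2, and the third young subfamily, B1_Mus1, had 57.004% and 59.97%. B1F stood at 65.3% and 64.7%, and PB1D10 at 64.2% and 63.6%. PB1D9 was the lowest of the older subfamilies at both stages, with 58.9% and 59.4%, and at the 8-cell stage it was below B1_Mus1.

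Copies seen in a few blastomeres were younger in make-up than those seen in 1 or in all. The young subfamilies were 56.7% of the 4-cell copies seen once, 67.2% of those seen in 2 to 4, 70.2% of those seen in 5 to 9, 60.2% of those seen in 10 to 23 and 32.98% of those seen in all 24. At the 8-cell stage the same classes held 49.6%, 56.96%, 57.1%, 52.1% (10 to 25 blastomeres) and 39.7% young copies. The level went up along the same order, from a median value above 0 of 1.75 FPKM for copies seen once to 163 FPKM for copies seen in all 24, and from 1.92 to 125 FPKM at the 8-cell stage.

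Pairs of blastomeres shared few B1 copies. Of the copies above 0 in either of 2 4-cell blastomeres, 5.41% to 20.6% (median 14.2%) were above 0 in both, over 276 pairs. Over 325 pairs of 8-cell blastomeres the figures were 5.99% to 20.4%, with a median of 12.5%. Other repeats overlapped more, with medians of 25.2% and 21.3%. Proto-B1 copies were shared most within the family, at 17.7% and 14.5%, and young copies least, at 13.1% and 11.6%.

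A small core was seen throughout. At the 4-cell stage 94 B1 copies, 0.135% (0.109 to 0.166%), were above 0 in all 24 blastomeres, against 0.499% of all repeat copies. At the 8-cell stage 121 copies, 0.156% (0.130 to 0.187%), were above 0 in all 26, against 0.379%. Of these, 41 were in every blastomere of both stages, 43.6% of the 4-cell and 33.9% of the 8-cell core, and the 41 comprised 13 young, 8 B1_Mur, 6 B1F and 14 proto-B1 copies. Single blastomeres weighed on these counts. Without the 4-cell blastomere in column S18 the core was 155 copies, and without the 8-cell blastomere in column S57 it was also 155.

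The most abundant copies were old ones and were much the same at both stages. The 10 with the highest medians among copies seen in every blastomere of a stage gave 12 different copies over the 2 stages, of which 10 belong to B1_Mur, B1F or proto-B1 subfamilies and 2 to B1_Mm. First at both stages was B1_Mur1 copy 1518 of chromosome 8, 121 bases long, at 3328 to 7996 FPKM (median 5437) in 4-cell and 3466 to 7405 FPKM (median 4508) in 8-cell blastomeres. Next came PB1D10 copy 1697 of chromosome 1, at 539.96 to 4074 FPKM (median 2552) and 1714 to 3863 FPKM (median 2795). B1_Mur3 copy 112 of chromosome 16 had 1090.2 to 3119 (median 1675) and 1044 to 3099.7 FPKM (median 1821). In these 3 copies the ranges of the stages overlapped for most of their width.

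PB1D11 copy 913 of chromosome 9 had 772 to 2556 FPKM (median 1487) at the 4-cell stage and 652 to 3060 FPKM (median 2179) at the 8-cell stage. B1_Mm copy 528 of chromosome 12, a fragment of 54 bases, had 315 to 3118 (median 1212) and 570 to 3779 FPKM (median 1641). B1F copy 1560 of chromosome 8 had 549 to 2674 (median 1106) and 326 to 1427 FPKM (median 801). Each of these medians lies within the range of the other stage. The remaining 6 had medians of 714 to 1211 FPKM at the 4-cell stage and 443 to 1170 FPKM at the 8-cell stage. Of these, B1_Mm copy 2616 of chromosome 2, 145 bases long, was at 0 in 1 of 24 4-cell blastomeres and otherwise reached 2475 FPKM (median 1163), and it had 661 to 1760 FPKM (median 905) in all 8-cell blastomeres.

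**Figure D3:**
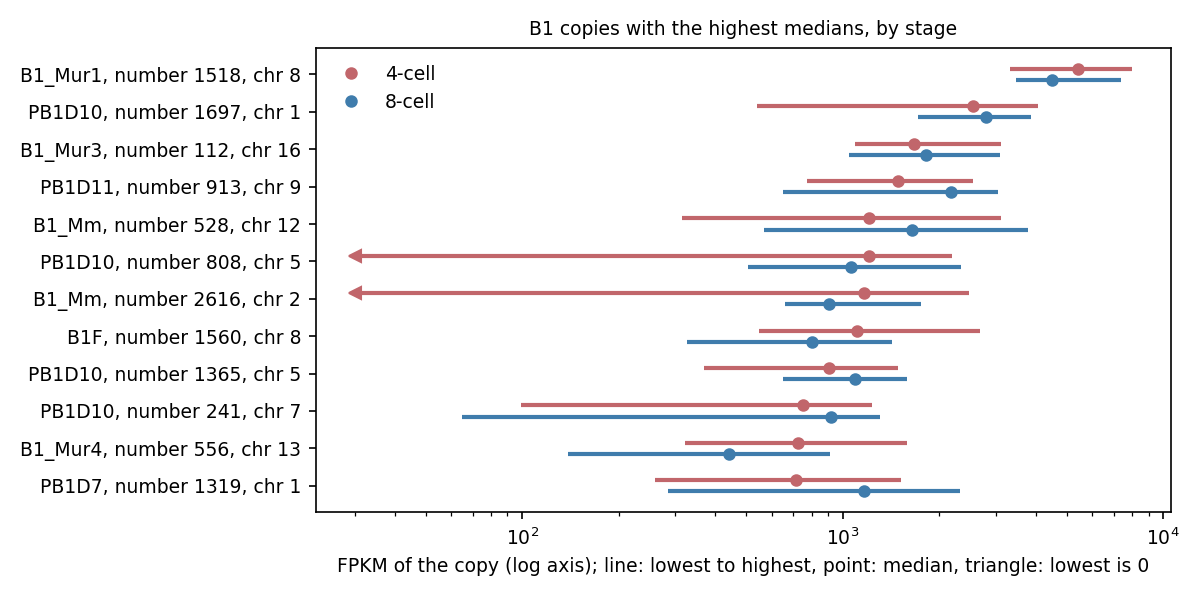
The 12 B1 copies named for their median are on the y axis and FPKM on a logarithmic x axis, with lines from the lowest to the highest blastomere, points at the median and a triangle where the lowest value is 0. B1_Mur1 copy 1518 of chromosome 8 stands apart at 5437 FPKM (4-cell) and 4508 FPKM (8-cell), and the lines of the stages overlap for every copy.

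Because the tables give no positions, the gene whose level followed each copy was looked up. Copies and genes were used where 50% or more of the blastomeres of a stage had a value above 0, which left 2249 copies and 8087 genes at the 4-cell stage and 1739 copies and 7515 genes at the 8-cell stage. For each copy the gene with the highest Pearson correlation of log2(FPKM + 1) over the blastomeres was taken as its partner. The partner is the highest of very many correlations over 24 or 26 libraries, and a fragment inside a copy within an exon is counted for both, so the correlation alone is a description. The chromosome of the partner did not enter the choice. This step was added after the data had been seen.

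The closer a copy followed its partner, the more often both lay on 1 chromosome. Of all copies, 24.6% had their partner on their own chromosome at the 4-cell stage and 27.5% at the 8-cell stage, where the numbers of genes per chromosome alone give 5.62% at both. At r below 0.7 the shares were 5.49% of 364 and 11.02% of 354 copies. At r of 0.95 or more they were 92.8% of 195 and 98.4% of 126 copies. Older subfamilies had a partner on their own chromosome more often than the young ones. Older copies also had more fragments each, and the part of this in the difference was not tested. Of the young copies 15.4% and 18.998% had their partner on their own chromosome, of the B1_Mur copies 30.98% and 35.6%, of the B1F copies 39.7% and 41.7%, and of the proto-B1 copies 39.9% and 33.9%.

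**Figure D4:**
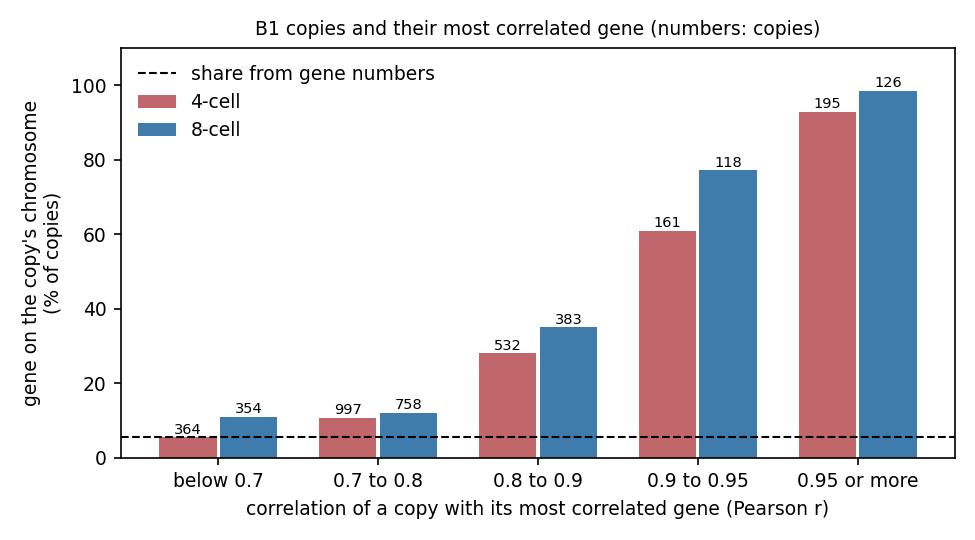
Bars show the percentage of B1 copies whose most correlated gene lies on the copy's own chromosome, by the size of the correlation, with red for the 4-cell and blue for the 8-cell stage and the number of copies above each bar. The dashed line marks 5.62%, the share that the numbers of genes per chromosome give, and the bars climb to 92.8% and 98.4%.

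The 2 stages share no library, and partners recurred between them. Of 1305 copies in both sets, 260 had the same partner gene at both stages, and for 258 of these the gene was on the chromosome of the copy. The 258 pairs comprised 75 young, 55 B1_Mur, 41 B1F and 87 proto-B1 copies and 236 genes, and 149 pairs had r of at least 0.9 at both stages. The running numbers fell in the order of the genes. Among copies of 1 subfamily and chromosome with r of at least 0.8 at both stages and different partners, the copy with the higher number had the partner further along the chromosome in 137 of 137 comparisons.

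All 12 of the most abundant copies had the same partner on their own chromosome at both stages. B1_Mur1 copy 1518 followed Gcsh, the H protein of the glycine cleavage system, with r = 0.97 and 0.98. Gcsh itself had a median of 1513 FPKM at the 4-cell stage and 1245 FPKM at the 8-cell stage. PB1D10 copy 1697 followed Alppl2, an alkaline phosphatase of the early embryo, with r = 0.98 and 0.82, and B1_Mm copy 528 followed Rrm2, a subunit of ribonucleotide reductase, with r = 0.91 and 0.93. B1_Mur3 copy 112 followed Rsl1d1, a nucleolar protein, with r = 0.92 and 0.95.

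The roles of the other partners were varied. B1F copy 1560 followed Nip7, a ribosome assembly factor, with r = 0.98 and 0.99. The copy had a median of 1106 FPKM at the 4-cell stage and 801 FPKM at the 8-cell stage. Nip7 itself had 119 and 81.1 FPKM. Each value is scaled to the length of its own copy or gene, 114 bases for this copy. How far the short length of a copy raises its FPKM was not tested. For this and the other pairs, copy and gene values are therefore not compared as amounts of RNA. B1_Mur4 copy 556 of chromosome 13 followed Nop16, another nucleolar protein, with r = 0.98 and 0.97. B1_Mm copy 2616 followed Ube2c, a ubiquitin-conjugating enzyme of the anaphase-promoting complex, with r = 0.996 and 0.916. Both were at 0 in the same 4-cell blastomere, and only there. It was the one in column S18, which had the fewest genes above 1 FPKM of its stage. The other partners were Sae1, Paics, Med28, Gpd1l and Becn2.

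Nanog, a transcription factor of pluripotent cells, was also a partner, chosen here for its role after its values had been seen. B1_Mus2 copy 2677 of chromosome 6 had 0 to 71.9 FPKM (median 13.9) at the 4-cell stage, and Nanog 0.0269 to 89.0 FPKM (median 21.2), with r = 0.99. At the 8-cell stage the copy had 0 to 47.0 FPKM (median 7.20) and Nanog 0 to 71.8 FPKM (median 7.93), with r = 0.98. The copy was above 0 in 18 of 24 and 21 of 26 blastomeres. All 3 8-cell blastomeres without Nanog were among the 5 without the copy.

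**Figure D5:**
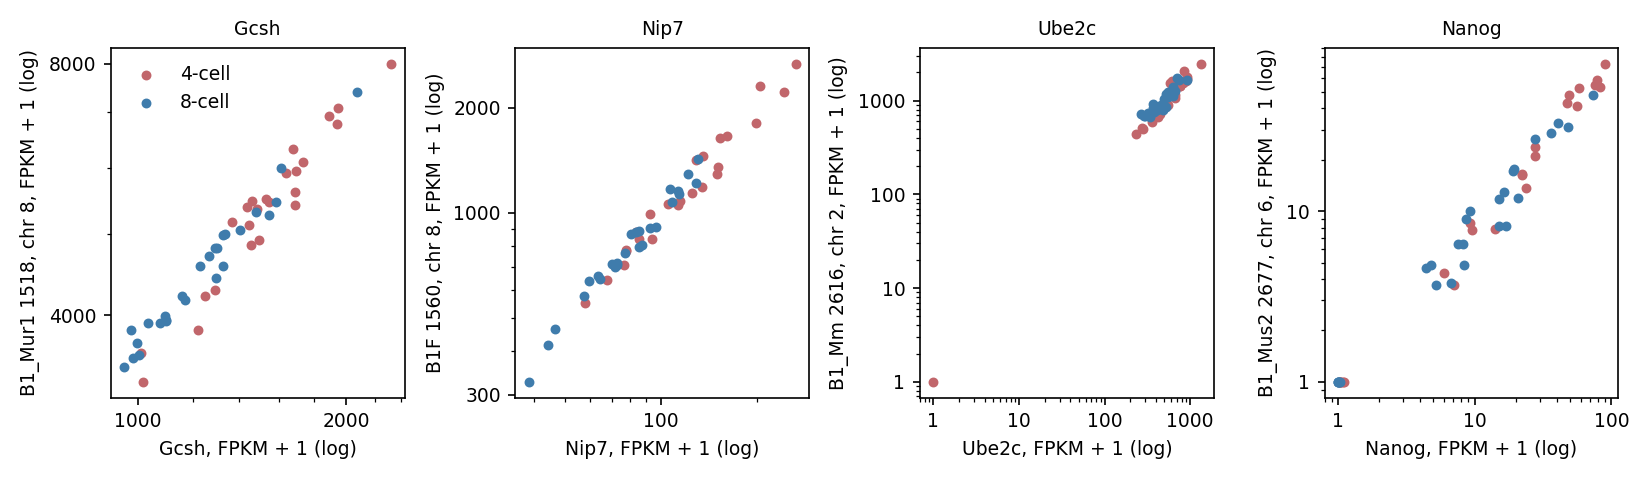
Each point is 1 blastomere, red for the 4-cell and blue for the 8-cell stage, with FPKM + 1 of a gene on the logarithmic x axis and of its partner B1 copy on the logarithmic y axis. Copy and gene follow each other in all 4 pairs, with r from 0.916 to 0.996.

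Few B1 copies were called for a difference between the stages in how many blastomeres showed them. A copy listed in both tables was called where the share of blastomeres above 0 differed by at least 50 percentage points. Of 36626 B1 copies, 15 had the larger share at the 8-cell stage, 0.0410%, against 0.181% of all repeat copies, and 70 had the larger share at the 4-cell stage, 0.191%, against 0.584%. Both shares of B1 were below those of all repeats. Such a difference needs a copy above 0 in at least 50% of the blastomeres of 1 stage. That held for 2249 listed B1 copies at the 4-cell stage and 1739 at the 8-cell stage. Most of the 36626 could therefore not be called. B1 copies were also seen in every blastomere less often than all repeat copies, and the part of this in the lower shares was not tested. The 70 comprised 46 of 22771 young, 10 of 5584 B1_Mur, 2 of 2602 B1F and 12 of 5669 proto-B1 copies, which is 0.202%, 0.179%, 0.0769% and 0.212% of each group. The 15 comprised 6, 3, 1 and 5.

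Those with the largest difference towards the 8-cell stage were mostly at low or moderate levels. B1F copy 936 of the X chromosome was above 0 in 3 of 24 4-cell blastomeres, at up to 2.66 FPKM, and in 20 of 26 8-cell blastomeres, at up to 12.5 FPKM. B1_Mur4 copy 1397 of chromosome 5 was above 0 in 4 of 24 and 21 of 26 blastomeres, with an 8-cell median of 35.5 FPKM. Its most correlated gene at the 8-cell stage lay on the same chromosome and was Kmt2c, a histone methyltransferase, with r = 0.78. PB1D10 copy 3993 of chromosome 7 and PB1D9 copy 773 of chromosome 13 were also above 0 in 4 of 24 and 21 of 26. B1_Mm copy 542 of chromosome 11 was above 0 in 8 of 24 and 24 of 26, and it reached 1115 FPKM in an 8-cell blastomere with a median of 79.3 FPKM.

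Towards the 4-cell stage the largest difference belonged to B1_Mus1 copy 3258 of chromosome 4. It was above 0 in 20 of 24 4-cell blastomeres, with a median of 1.54 FPKM and a highest value of 14.1, and in 1 of 26 8-cell blastomeres, at 0.423 FPKM. B1_Mus1 copy 5653 of chromosome 11 was above 0 in 21 of 24 and 4 of 26, B1F copy 504 of chromosome 18 in 19 of 24 and 2 of 26, and B1_Mm copy 235 of chromosome 7 in 19 of 24 and 3 of 26. PB1D9 copy 1137 of chromosome 4 had the highest 4-cell median of these, 48.1 FPKM, in 23 of 24 blastomeres, and it was above 0 in 8 of 26 8-cell blastomeres with a median of 0. Each of the 10 copies named here for a stage difference had a partner gene at 1 stage only, the stage where more blastomeres showed it. For 1 of the 10 that gene lay on the copy's own chromosome, and the highest correlations were 0.55 to 0.85. Because the stage difference itself decided which values were used, these figures are not compared with those of other copies.

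Listed copies followed the genes along the genome. Chromosome 11 had the largest listed share at both stages, 14.9% and 16.8% of its 42250 numbered copies. The X chromosome stood at 7.94% and 9.17% and the Y chromosome at 0.565% and 0.673%. Over the 20 chromosomes without Y, listed copies per Mb and listed genes per Mb had a Pearson r of 0.92 at the 4-cell stage and 0.90 at the 8-cell stage. Copies per Mb also carry the number of B1 copies a chromosome holds. The listed share of the numbered copies had r = 0.77 and 0.74 with genes per Mb. Listed copies often had a listed neighbour. The next running number was listed for 23.2% and 26.6% of the copies, where the listed share of the same subfamily and chromosome was 16.3% and 15.9%.

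The parent RNA and a close relative were measured too. Rows named 7SLRNA were copies of 7SL in the genome, of which 27 and 44 were listed. The most abundant, number 9 of chromosome 15, had 0 to 205 FPKM (median 52.5) in 4-cell and 0 to 408 FPKM (median 68.1) in 8-cell blastomeres. Of 4.5SRNA, a rodent RNA related to B1, 73 and 106 copies were listed, and number 54 of chromosome 11 had 0 to 181 FPKM (median 80.3) and 0 to 502 FPKM (median 202). No copy of either family was above 0 in every blastomere of a stage.

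The genes for the machinery that transcribes B1 copies were counted at both stages. RNA polymerase III makes B1 RNA with the help of TFIIIC, TFIIIB and TBP. Of 20 genes for its subunits and factors, 18 had a median above 1 FPKM at each stage, against 49.7% (4-cell) and 45.8% (8-cell) of the 13604 genes in both tables. Among the 20, 15 had the higher median at the 4-cell stage and 4 at the 8-cell stage. Over the same 13604 genes the higher median fell to the 4-cell stage for 35.8% and to the 8-cell stage for 26.8%, or 57.2% and 42.8% of the 8519 genes with unequal medians, and the ranges of the stages did not overlap for 0%. The subunit Polr3g had 43.6 to 140 FPKM (median 92.5) at the 4-cell stage and 0.140 to 128 FPKM (median 61.5) at the 8-cell stage. Its paralog Polr3gl was above 0 in 2 of 24 and 1 of 26 blastomeres. Tbp, the TATA-binding protein, had medians of 113 and 43.3 FPKM, and Gtf3c2, a TFIIIC subunit, 14.99 and 36.95 FPKM. Brf1, a TFIIIB subunit, had medians of 0.0123 and 0.00982 FPKM. Maf1, the repressor of the polymerase, stood at 14.4 and 19.1 FPKM.

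Genes for proteins that bind B1 or Alu RNA ranged widely in level. Of 10 such genes, 10 had a median above 1 FPKM at the 4-cell stage and 9 at the 8-cell stage, where all genes had 49.7% and 45.8%. Srp9 and Srp14, which bind the 7SL fold that B1 RNA keeps, had medians of 233 and 232 FPKM at the 4-cell stage and 178 and 129 FPKM at the 8-cell stage. Hnrnpc, which binds uridine-rich stretches of antisense Alu in RNA precursors, had 84.0 to 527 FPKM (median 321) and 258 to 440 FPKM (median 349). Adar, which edits paired repeats, had medians of 1.09 and 0.0770 FPKM. Ranges of the stages overlapped for all 10.

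Genes of silencing had 11 of 12 above a median of 1 FPKM at each stage, where all genes had 49.7% and 45.8%. Of the 12, 8 had the higher median in 8-cell and 4 in 4-cell blastomeres, where genes with unequal medians had 42.8% and 57.2%. Trim28, the corepressor of zinc finger proteins, had 8.12 to 165 FPKM (median 59.8) and 25.6 to 280 FPKM (median 121). Hells, a remodeller needed for methylation of repeats, had medians of 61.2 and 61.5 FPKM. Setdb1, which methylates histone H3, stood at 6.14 and 8.32 FPKM. Atrx, a remodeller of heterochromatin, had medians of 24.6 and 20.9 FPKM, and Daxx, its partner, 1.84 and 10.4 FPKM. Dnmt1, the maintenance DNA methyltransferase, stood at 7.72 and 2.26 FPKM. No gene of the 3 lists had ranges that were apart between the stages.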

How the data were processed

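Single blastomeres were sequenced with the Smart-seq2 protocol, which amplifies full-length cDNA without molecular identifiers. The authors aligned paired reads with STAR 2.5.1b to mm10, kept uniquely aligned ones, and counted them with HTSeq on RefSeq genes and RepeatMasker repeats. Whether strand was used in counting is not given in the sources used here. The deposited values are FPKM for genes and, as the values themselves show, for repeats. The fragment number of a blastomere was recovered from its values, which are whole multiples of 1 fragment, a step tested on simulated data (10 of 10 simulated blastomeres and 1497 of 1500 copy lengths were returned).

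Members and lists were chosen with earlier results of these data known. Copies named were, per stage, the 10 highest medians among copies above 0 in every blastomere, and up to 5 per direction with the largest stage difference in blastomeres above 0. The partner step was tested on simulated 4-cell copies too (183 of 184 genes were returned). Each simulated copy was made from a gene in the search with counting noise added. The result therefore does not cover real copies that follow no listed gene or have few fragments. Columns with the name NA (5 at the 8-cell stage) were kept. Blastomeres from 5-cell and 6-cell embryos were not used here. Python 3 with numpy, scipy and pandas was used. No test between stages was run, since the column names tie no column to an embryo and columns were not matched by order or depth. Alternatives covered the detection threshold, the columns kept, the copies kept, the call rule, the denominator and the depth. A sequence and the results that rest on it are not reported here.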

Additional observations from a re-analysis of the deposited data

How the results depend on the processing

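Of 45 alternatives other than leaving out single blastomeres, 31 left the value within its spread or interval, or a count within 1.5 times. For medians the spread was the standard deviation over blastomeres, a wide margin. It took in a 4-cell median of 4692.5 B1 copies with values above 1, against 6592. It also took in a stage difference of -1.17% after thinning with the lower bounds, against 8.04% of the 4-cell median. With values above 1 in place of above 0, the share of copies seen once was 60.4% at the 4-cell stage and 61.6% in 8-cell blastomeres, and the median young share was 52.3% for the former and 42.2% for the latter. Without the columns named NA, the 8-cell share seen once was 62.9%, that seen in every blastomere 0.192%, and 24.7% of the copies had their partner gene on their own chromosome. Without the blastomere with the fewest repeat copies, the 8-cell share seen in every blastomere was 0.201%. Of copies listed in both tables, 40.5% and 39.9% were seen once. With SINE rows alone as the denominator, B1 was 44.5% and 45.2% of the rows. At 75 points, 0 and 1 copies differed between the stages towards the 8-cell and the 4-cell stage, in place of 15 and 70. With Spearman correlation, 27.3% of 4-cell copies had their partner on their chromosome. Leaving out each blastomere in turn gave 57.4% to 58.2% (4-cell) and 59.8% to 60.4% (8-cell) seen once, 0.138% to 0.226% and 0.159% to 0.201% seen in every blastomere, medians of 6580.0 to 6604 and 6927 to 7317 copies, and young shares of 62.1% to 62.2% and 51.5% to 51.9%. The thinning, the alternatives of the young share and of the partner genes were chosen after seeing the data. The median young share was higher at the 4-cell stage in each setting tried. The alternatives for copies inside genes were not run, since positions are not in the tables used here. No paired analysis was possible because the names of the columns give no embryo or replicate number. A copy at 0 was not detectable at this depth, which is not the same as silent.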
